A study of Bos taurus with 10 samples.

Results

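The 10 enzymes described here carry glucose 6-phosphate to lactate in the cytosol of muscle fibres: GPI, PFKM, ALDOA, TPI1, GAPDH, PGK1, PGAM2, ENO3, PKM and LDHA. Their genes were taken by symbol, as every probe set to which the platform annotation gives exactly 1 gene symbol and that symbol is one of the 10. This gave 17 of 24128 probe sets and 10 of 9155 named genes, with 4 probe sets for GAPDH, 3 each for PFKM and LDHA, and 1 each for the other 7 genes. The probe set with the highest mean stood for its gene, and all 10 genes passed the filter on dim genes, which kept 6271 named genes.

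Muscle of 10 Hanwoo, the native beef cattle of Korea, gave the poly(A) RNA that was measured on 10 Affymetrix bovine arrays, 1 animal per array. The muscle was the longissimus dorsi, which runs along the spine, and an age of about 2 years is given for animal 1. The animals form 1 group, numbered 1 to 10, with no treatment or genotype. Per the design text the profiles were to be correlated with traits of the beef, but trait values were not analysed here, so the enzymes are described by their level, their spread and what they varied with. That the samples come from separate animals is read from their numbers and the design text alone; otherwise the p-values would measure technical spread.

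Glycolysis splits 1 hexose into a pair of trioses, oxidises them and recovers ATP without oxygen, and fast muscle fibres depend on it during short bursts of work. After slaughter the same enzymes turn muscle glycogen into lactate, which lowers the pH of the meat. Several steps are run in adult muscle by isozymes made mainly there, such as PFKM, PGAM2 and ENO3. In a piece of whole muscle, fewer fibres and less RNA per fibre cannot be told apart.

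Levels are given as log2(signal + 16) after quantile normalization, which gives every array the same distribution, and the authors' deposited scaling is set beside it. The highest value that quantile normalization assigned was 16.07, so no probe set could lie above it. The part of this upper bound in the spread of the brightest genes was not tested. Probe sets differ in how brightly they respond, and no order among the enzymes is read from them. Markers of the labelled tissue were bright, with the 6 measured general muscle genes of 9 listed at 15.22 to 15.90. Animal 5 stood apart on the array controls. Poly(A) control RNAs added to the samples are read at both ends, and their 3' signal exceeded the 5' signal by 2.80 on the log2 scale in animal 5, against 1.09 to 1.38 in the other 9 animals. The hybridization controls, spiked in equally, covered a 3.90-fold range between arrays on the deposited scaling, highest in animals 1, 10 and 6 and lowest in animal 2. Results are given with and without animal 5 and on both scalings.

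The first reactions prepare and split the sugar. GPI, which turns glucose 6-phosphate into fructose 6-phosphate, was lowest at 13.69 in animal 3, had a median of 14.33 and was highest at 14.82 in animal 9 (mean 14.33 ± 0.37, SD, n = 10). Animal 5, at 13.75, lay next to animal 3, and the remaining 8 animals were above both. PFKM, the muscle phosphofructokinase that commits the sugar to glycolysis, ran from 14.05 in animal 5 through a median of 15.14 to 15.66 in animal 9 (mean 15.02 ± 0.47, SD, n = 10). Animals 5 and 3 were again the lowest. ALDOA, the aldolase that splits the hexose, ran from 15.16 in animal 2 to 15.66 in animal 3 with a median of 15.57 (SD 0.15), so animal 3, low for GPI and PFKM, was the highest here. TPI1, which interconverts both trioses, kept within 14.37 and 14.79 with a median of 14.61 (SD 0.14), and animal 5 was at 14.59, near the middle.

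The later reactions recover ATP and end in lactate. GAPDH, which oxidises the triose and is often used as a reference gene, ran from 15.32 in animal 5 to 15.98 in animal 6 with a median of 15.85 (SD 0.19), and the other 9 animals began at 15.77. PGK1, which makes the first ATP, ran from 14.14 in animal 3 to 14.96 in animal 6 with a median of 14.55 (SD 0.24). Animals 6, 8, 9 and 10 were the highest 4 for PGK1, as they were for GPI. PGAM2, the muscle phosphoglycerate mutase, ran from 14.78 in animal 5 to 15.41 in animal 6 with a median of 15.20 (SD 0.21). ENO3, the muscle enolase, was at 15.31 in animal 5, against 15.66 to 15.79 in the other 9 animals (median 15.68, SD 0.13). On this scale no other animal overlapped animal 5 for GAPDH or ENO3, although on the deposited scaling animal 2 was lower for both. PKM, the pyruvate kinase, varied most, from 12.28 in animal 5 through a median of 14.06 to 14.35 in animal 9 (mean 13.86 ± 0.63, SD, n = 10). Its next lowest animal was animal 3 at 13.37. LDHA, the lactate dehydrogenase subunit that favours lactate formation, had the smallest SD on this scale, from 15.47 in animal 1 through 15.62 to 15.77 in animal 8 (SD 0.10), and animal 5 was at 15.72. The smallest SD on the deposited scaling was that of TPI1, 0.29, against 0.41 for LDHA, and after quantile normalization of the other 9 animals alone ENO3 had it, 0.046.

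**Figure D1:**
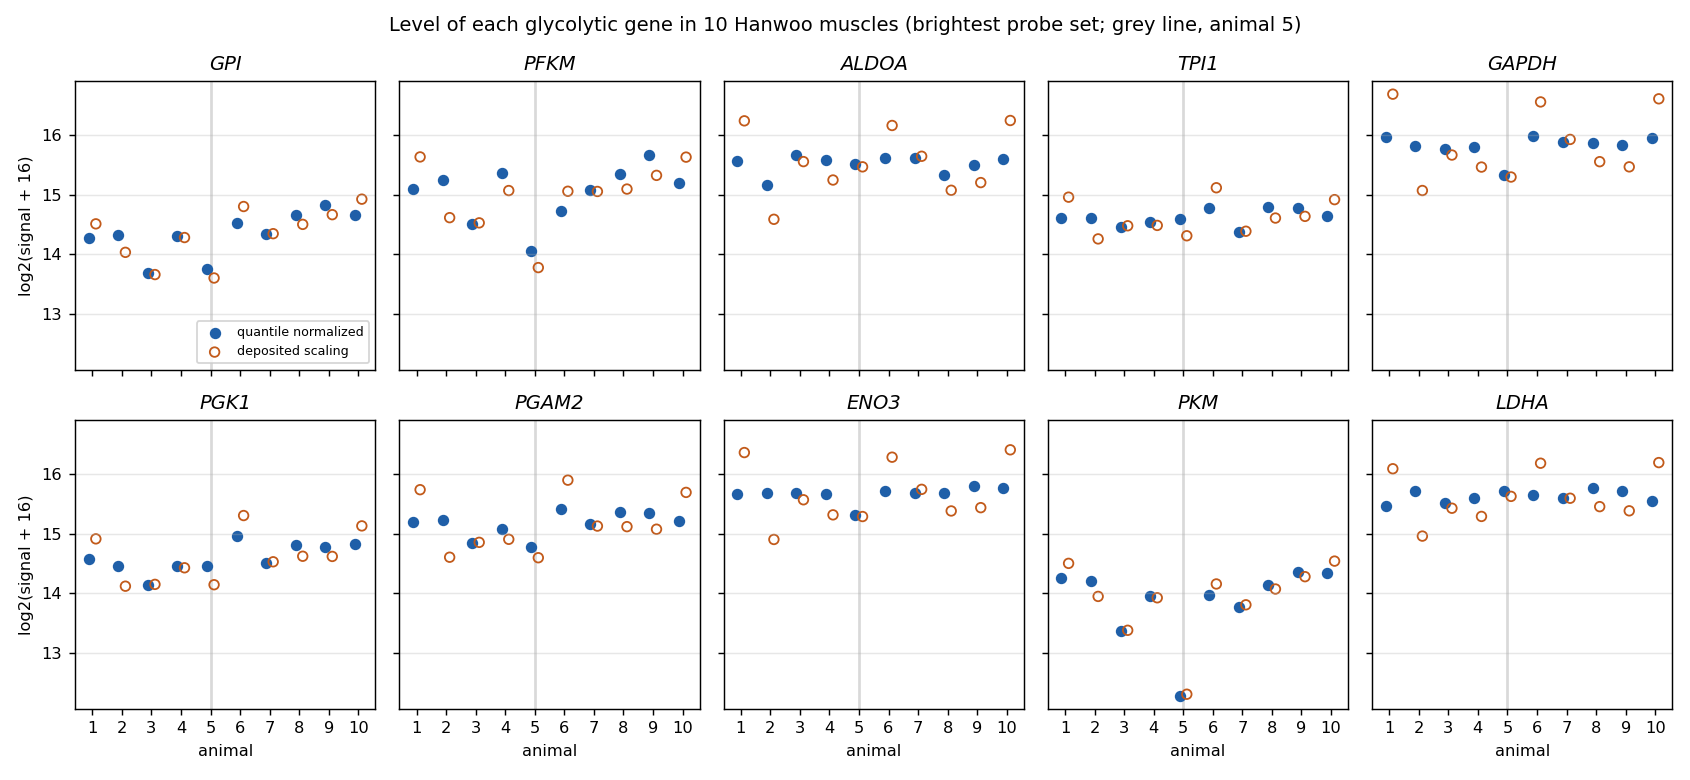
Level of each of the 10 enzyme genes (panels, in pathway order) in animals 1 to 10 as log2(signal + 16); filled points are quantile normalized and open circles use the deposited scaling, 1 array per point. PKM falls to 12.28 in animal 5 (grey line) on the quantile normalized scale, while the open circles of ALDOA, GAPDH, ENO3 and LDHA stand highest in animals 1, 6 and 10.

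The median SD of the 10 enzymes was 0.20, beside 0.36 over all 6271 tested genes and 0.22 over the 203 other tested genes at least as bright as PKM, the dimmest of the 10. PKM, PFKM and GPI had an SD above the median of all tested genes. On the deposited scaling the median SD was 0.49 over the enzymes, 0.37 over all tested genes and 0.39 over 201 other genes as bright, and 9 of 10 enzymes were above the median of all tested genes. Whether the enzymes vary less or more than a typical gene therefore flips with the scaling. After quantile normalization of the other 9 animals alone, the medians were 0.17 for the enzymes, 0.31 for all tested genes and 0.14 for 183 other genes as bright. In the values normalized over all 10 animals, the SD of PKM was 0.63 with animal 5 and 0.31 over the other 9 animals. That of PFKM was 0.47 with animal 5 and 0.35 without it.

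On the deposited scaling 7 of 10 enzymes rose with the hybridization control level at an unadjusted limma p below 0.05. Over all genes 398 of 6272 were below it in either direction. ALDOA alone of the enzymes passed after adjustment, while PKM, PFKM and GPI were far from passing. The median enzyme lay 0.59, 0.59 and 0.62 above its mean in animals 1, 6 and 10, and 0.52 and 0.49 below it in animals 2 and 5. The hybridization controls stood at 13.14 and 13.11 in animals 1 and 10, just below that in animal 6, at 11.18 in animal 2 and at 12.65 in animal 5. In limma with the hybridization control level as covariate, 18 of 6272 genes rose with it on this scaling (0.287%) and ALDOA was the 1 enzyme of 10 among them, with a slope of 0.53 log2 per SD of the control level (SE 0.08, limma adjusted p = 0.0276). LDHA had 0.39 (limma adjusted p = 0.067), ENO3 0.46 (limma adjusted p = 0.0941) and GAPDH 0.50 (limma adjusted p = 0.115), none past 0.05, while PKM had 0.05 (limma adjusted p = 0.99), PFKM 0.14 (limma adjusted p = 0.96) and GPI 0.14 (limma adjusted p = 0.94). PGAM2 had 0.34 (limma adjusted p = 0.561), PGK1 0.27 (limma adjusted p = 0.75) and TPI1 0.21 (limma adjusted p = 0.767). All 10 slopes were above 0, beside 44.4% of all tested genes. For ALDOA r was 0.959 (permutation p = 5e-05, rho = 0.903, permutation p = 0.0009, n = 10), and 0.920 without animals 1 and 2, the farthest from the median control level. Without animal 5, r with the control level was 0.985 for ALDOA, 0.989 for ENO3, 0.980 for GAPDH and 0.971 for LDHA. It was 0.912 for PGAM2, 0.844 for TPI1, 0.797 for PGK1, 0.603 for PFKM, 0.506 for GPI and 0.457 for PKM. After quantile normalization 0 of 6271 genes and 0 of 10 enzymes passed in limma (0% of genes), with 291 genes and 0 enzymes at an unadjusted p below 0.05. Rank correlation of each gene called 0 as well. Slopes then ran from -0.21 for PFKM to 0.10 for ALDOA.

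**Figure D2:**
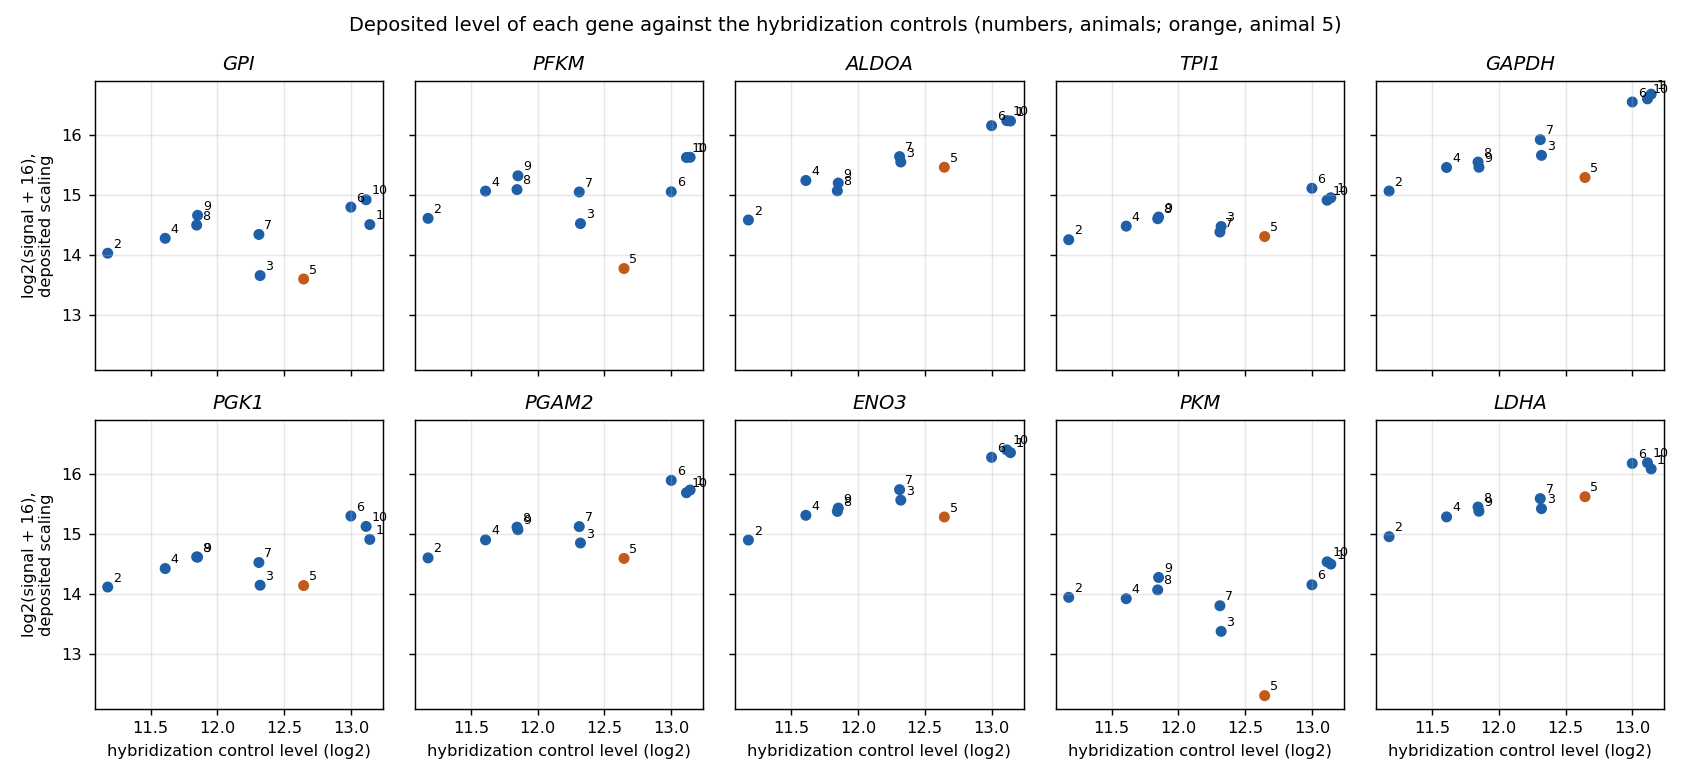
Level of each enzyme gene on the deposited scaling, log2(signal + 16), against the mean log2 signal of the hybridization controls; each point is 1 array, numbered by animal, with animal 5 in orange. ALDOA, GAPDH, ENO3 and LDHA climb with the controls. Animal 5 lies below animals 3 and 7, the arrays nearest to it in control level, for every enzyme but LDHA, and farthest for PKM and PFKM.

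Probe sets of the same gene did not show the same animal 5. The GAPDH probe set at the 3' end was at 15.61 in animal 5, within the 15.43 to 15.91 of the other 9 animals, a difference of -0.09 from their mean. The middle set differed by -0.55, the 5' set by -0.77 and the fourth set, outside the array maker's controls, by -0.35, and in these 3 sets animal 5 lay below all other animals. The 3' minus 5' difference of GAPDH was 0.67 in animal 5, against -0.34 to 0.19 in the others. Of 6 cattle control genes with both a 3' and a 5' set, animal 5 had the highest 3' minus 5' difference in 5, the exception being actin.

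All 3 PFKM probe sets were lowest in animal 5, by unequal amounts. The set that stands for PFKM was at 14.05 in animal 5, against 14.50 to 15.66 in the other 9 animals, a difference of -1.08 from their mean. The second brightest was at 12.64, against 13.70 to 14.72, and the dimmest at 11.07, against 13.16 to 14.40. Their differences from the mean of the others were -1.65 and -2.68. The brightest pair of these sets had r = 0.941 (permutation p = 0.00033, rho = 0.733, permutation p = 0.0206, n = 10), 0.822 without the 2 farthest animals, 3 and 5, and 0.900 without animal 5.

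The 3 LDHA probe sets moved apart in animal 5. The brightest lay 0.10 above the mean of the others, the middle one was lowest in animal 5 at 10.96, against 11.31 to 12.29, and the dimmest was highest in animal 5 at 9.75, against 8.65 to 9.52. Over all animals the brightest and middle sets had r = 0.411 (permutation p = 0.24, rho = 0.497, permutation p = 0.149, n = 10), 0.802 without animals 5 and 8 and 0.864 without animal 5. The dimmest set had r = 0.301 with the brightest (permutation p = 0.393, rho = 0.288, permutation p = 0.425, n = 10), -0.136 without animals 1 and 5 and 0.166 without animal 5. The direction of LDHA in animal 5 therefore depends on the probe set. Probe sequences were not used here, so cross-hybridization with related genes such as LDHB, ENO1 or PGAM1 was not tested.

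**Figure D3:**
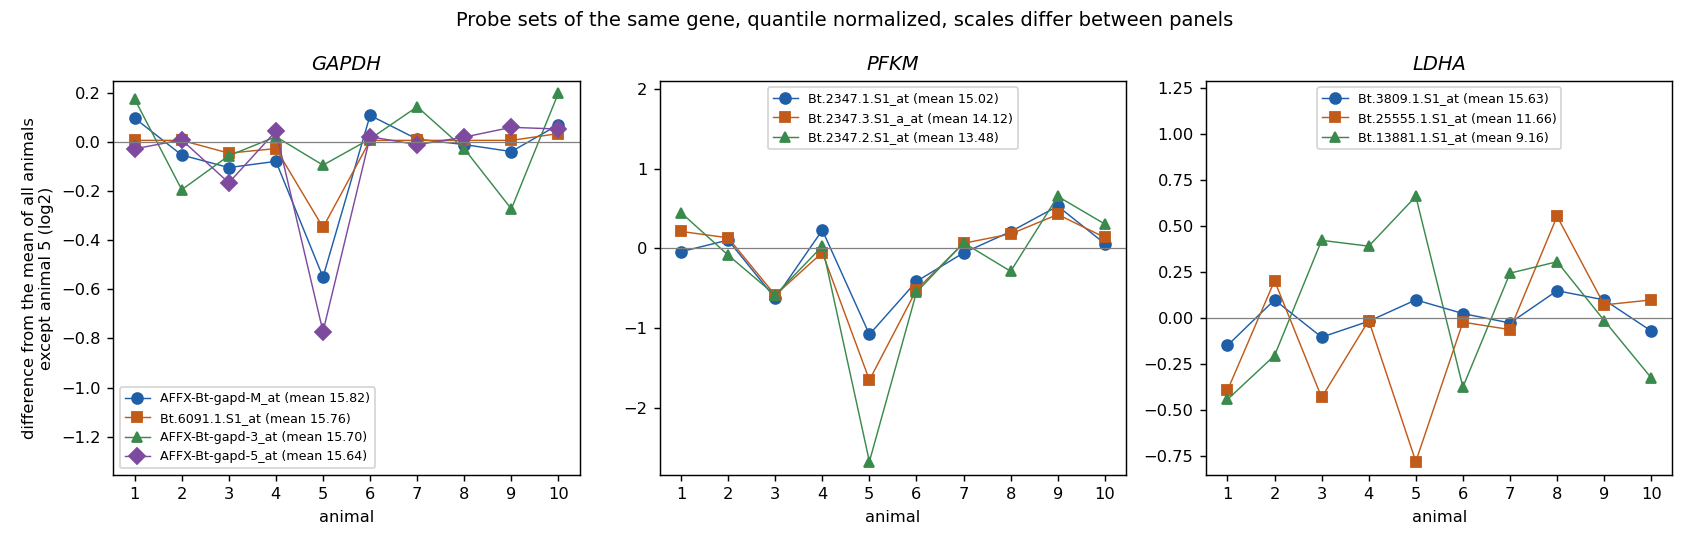
Quantile normalized level of every probe set of GAPDH, PFKM and LDHA in animals 1 to 10, as the log2 difference from that set's mean over all animals but animal 5; lines join points of 1 probe set and carry no order of animals. In animal 5 the GAPDH 3' set stays near 0 while the 5' set is at -0.77, the PFKM sets are at -1.08, -1.65 and -2.68, and the LDHA sets lie on both sides of 0.

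After quantile normalization 5 of the 10 enzymes were lowest in animal 5: PFKM, GAPDH, PGAM2, ENO3 and PKM. Over all tested genes 27.6% were lowest in animal 5. Differences of more than 0.5 below the mean of the others were seen for 4 enzymes, PKM, PFKM, GPI and GAPDH, and for 27.0% of tested genes. The median difference was -0.41 over the enzymes and -0.06 over all tested genes. On the deposited scaling GPI, PFKM, PGAM2 and PKM were lowest in animal 5, while GAPDH and ENO3 were lowest in animal 2. The means of some other lists also stood low in animal 5 after quantile normalization. The mean deviation of 47 oxidative phosphorylation genes was -0.45 in animal 5, against -0.06 to 0.19 in the others. That of 8 slow fibre genes was -0.23 against -0.09 to 0.28. Among these 8, MYL3 was at 12.74 in animal 5, against 13.91 to 14.92 in the others. TNNC1 was at 15.98 there, its lowest value but near its mean of 16.05, and TPM3 at 10.57, above its lowest value of 10.21. The slow fibre mean therefore does not show that the whole list was low. The general muscle list was at 0.02 in animal 5, within the -0.09 to 0.04 of the other animals, and the 7 fast fibre genes at -0.06, within -0.11 to 0.10.

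The poly(A) control difference was used as covariate to ask which genes varied with it. PKM was the 1 enzyme of 10 that fell with it, by 0.53 log2 per SD of the covariate (SE 0.11, limma adjusted p = 0.0102). Over all genes 273 rose and 695 fell, which is 15.4% of 6271. PFKM had a slope of -0.33 (SE 0.11, limma adjusted p = 0.0673), GPI -0.17 (limma adjusted p = 0.326), GAPDH -0.16 (limma adjusted p = 0.104), ENO3 -0.12 (limma adjusted p = 0.178) and PGAM2 -0.12 (limma adjusted p = 0.333). ALDOA, TPI1, PGK1 and LDHA had slopes between -0.02 and 0.03. The fit rests on animal 5: without it 0 of 6275 genes passed in limma, 325 had an unadjusted p below 0.05, and the PKM slope was 0.12 (SE 0.11, limma adjusted p = 0.951). A slope is per SD of the covariate over the animals in that fit, and that SD was 0.50 with animal 5 and 0.094 without it, so only the sign and the test of the fits can be compared. Rank correlation over all 10 animals called 3 genes. On the deposited scaling 14.9% of genes passed and again PKM alone of the enzymes, with a slope of -0.51 (limma adjusted p = 0.0201). Animal 5 and the control difference cannot be told apart.

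**Figure D4:**
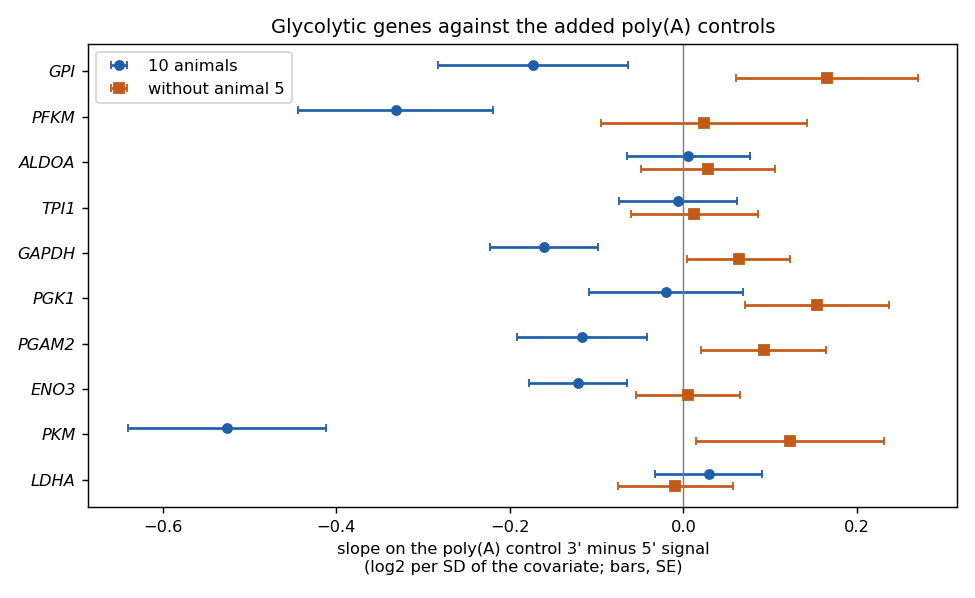
Slope of each enzyme gene on the poly(A) control difference (3' minus 5' log2 signal), in log2 per SD of that covariate, over 10 animals (blue circles) and without animal 5 (orange squares); bars are SE from limma. With 10 animals PKM lies at -0.53 and PFKM at -0.33, and without animal 5, per its smaller SD, they are 0.12 and 0.02.

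Whether the enzymes varied together was asked with each of them in turn as covariate over all tested genes. With PKM as covariate 776 of 6270 genes passed (12.4%) and 2 of the other 9 enzymes rose, PFKM by 0.42 (SE 0.09, limma adjusted p = 0.0162) and GPI by 0.30 (SE 0.08, limma adjusted p = 0.0395). With ENO3, 889 genes passed (14.2%) and again 2 enzymes, PKM by 0.57 (SE 0.10, limma adjusted p = 0.00643) and PFKM by 0.36 (SE 0.11, limma adjusted p = 0.0408). With GAPDH, 635 genes passed (10.1%) and PKM rose by 0.56 (SE 0.10, limma adjusted p = 0.0102). With PFKM, 7 genes passed (0.112%), none of them an enzyme, and PKM had 0.55 (limma adjusted p = 0.0537). With GPI, ALDOA, TPI1, PGK1, PGAM2 or LDHA as covariate 0 genes passed in limma (0%), with fewest for ALDOA, 198 for TPI1, 222 for LDHA, 344 for PGK1, 701 for GPI and 755 for PGAM2 at an unadjusted p below 0.05. Over the 10 fits this made 5 of 90 ordered pairs of enzymes, beside 3.68% of all tests. Rank correlation called 23 genes and 0 enzyme pairs over the 10 fits.

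These calls also rested on animal 5. Without it 0 of 62740 tests and 0 of 90 pairs passed in limma. Slopes per SD are again in other units, since the SD of GAPDH, ENO3 and PKM was 0.19, 0.13 and 0.63 with animal 5 and 0.08, 0.05 and 0.31 without it, so r is given instead. For GAPDH and PKM r was 0.894 with animal 5 (permutation p = 0.0114, rho = 0.527, permutation p = 0.124, n = 10), 0.571 without animals 5 and 6 and 0.445 without animal 5. For ENO3 and PKM it was 0.901 (permutation p = 0.00934, rho = 0.569, permutation p = 0.0905, n = 10), 0.273 without animals 5 and 9 and 0.443 without animal 5. For PFKM and ENO3 it was 0.757 (permutation p = 0.0194, rho = 0.318, permutation p = 0.368, n = 10), 0.343 without animals 3 and 5 and 0.332 without animal 5. PKM had r = 0.811 with GPI (permutation p = 0.00352, rho = 0.673, permutation p = 0.0384, n = 10), 0.516 without animals 3 and 5 and 0.827 without animal 5. With PFKM it had r = 0.879 (permutation p = 0.00184, rho = 0.685, permutation p = 0.035, n = 10), 0.462 without animals 3 and 5 and 0.744 without animal 5. The calls of PKM on GAPDH, PKM on ENO3 and PFKM on ENO3 were also lost on the deposited scaling and with median centring, with slopes of 0.36, 0.33 and 0.35 on the deposited scaling, while those of GPI and PFKM on PKM passed on both.

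Among pairs that depended less on animal 5 were those of GPI, PGK1, PGAM2 and TPI1. GPI and PGAM2 had r = 0.922 (permutation p = 0.00077, rho = 0.806, permutation p = 0.00711, n = 10), 0.692 without the 2 farthest animals, which were 3 and 5, and 0.888 without animal 5. PGK1 and PGAM2 had r = 0.809 (permutation p = 0.00299, rho = 0.723, permutation p = 0.0216, n = 10), 0.648 without animals 3 and 6 and 0.910 without animal 5. TPI1 and PGK1 had r = 0.775 (permutation p = 0.00895, rho = 0.742, permutation p = 0.0186, n = 10), 0.899 without animals 7 and 8 and 0.779 without animal 5. None of these pairs passed over all genes, with limma adjusted p = 0.386 for PGAM2 on GPI, 0.869 for PGAM2 on PGK1 and 0.999 for PGK1 on TPI1.

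ALDOA and LDHA went opposite ways after quantile normalization, with r = -0.669 (permutation p = 0.0252, rho = -0.693, permutation p = 0.0317, n = 10), -0.596 without animals 2 and 8 and -0.707 without animal 5, and limma adjusted p = 0.944 for ALDOA on LDHA. On the deposited scaling the same pair had r = 0.961 (permutation p = 0.00012, rho = 0.855, permutation p = 0.00265, n = 10), 0.925 without animals 2 and 10, and limma adjusted p = 0.016 for ALDOA on LDHA, so the sign of this relation is set by the scaling. Over all 45 pairs the median r was 0.443 after quantile normalization, with 35 above 0, and 0.445 without animal 5, with 36 above 0. On the deposited scaling all 45 were above 0 with a median of 0.835, and 17 of 90 ordered pairs passed in limma, beside 1.99% of all tests. They were 4 enzymes with ENO3 as covariate (0.51% of genes passed) and 3 with GAPDH (0.431%), PKM and PFKM not among them, and 3 with ALDOA (0.446%), 3 with LDHA (0.399%), 2 with PFKM (6.24%) and 2 with PKM (11.8%). With GPI 0.0159% of genes and 0 enzymes passed, and with TPI1, PGK1 or PGAM2 0 genes passed in limma, with 705 to 776 at an unadjusted p below 0.05. GAPDH and ENO3 had the highest r there, 0.992 (permutation p = 1e-05, the smallest that the 100000 resamples can give, rho = 0.976, permutation p = 3e-05, n = 10), and 0.986 without animals 1 and 10. After quantile normalization that pair had r = 0.889 (permutation p = 0.0336, rho = 0.391, permutation p = 0.261, n = 10), 0.118 without animals 5 and 6 and 0.157 without animal 5. The pairs share the same 10 arrays and are given as a description.

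**Figure D5:**
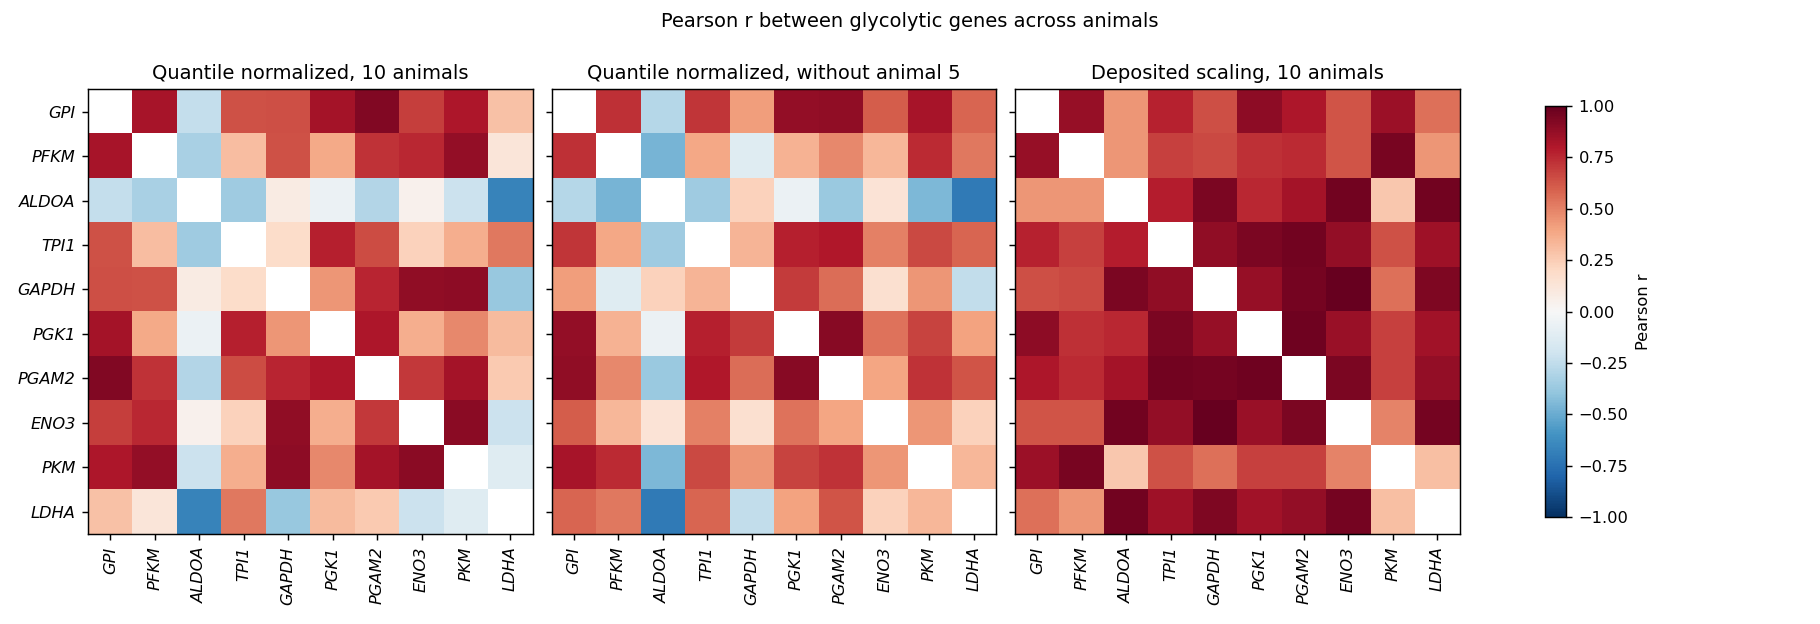
Pearson r between the 10 enzyme genes (rows and columns, in pathway order) across the animals, from blue (-1) to red (1), after quantile normalization of 10 animals, from the same values without animal 5, and on the deposited scaling. Without animal 5 the block of GPI, TPI1, PGK1 and PGAM2 stays red while GAPDH with ENO3 fades to 0.157, and on the deposited scaling all 45 pairs are above 0.

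Outside the 10 enzymes, the tested genes with the highest r to each enzyme over the 10 animals were these. Because they were picked by r, their permutation p-values do not allow for that choice. The limma adjusted p covers all tested genes. PKM was closest to HSPB6, a small heat shock protein of muscle (r = 0.979, permutation p = 4e-05, rho = 0.855, permutation p = 0.00281, limma adjusted p = 0.000616, n = 10), to CAPN3, the muscle calpain, and to POLR2E, a subunit of RNA polymerase II. For HSPB6 r was 0.861 without animals 3 and 5. Without animal 5, r with PKM was 0.941 for HSPB6, 0.901 for CAPN3 and 0.922 for POLR2E. GPI was closest to PRELP (r = 0.921, permutation p = 7e-05, rho = 0.879, permutation p = 0.00186, limma adjusted p = 0.367, n = 10), to PGM1, the phosphoglucomutase that links glycogen with glucose 6-phosphate (r = 0.911, permutation p = 0.00051, rho = 0.815, permutation p = 0.00645, limma adjusted p = 0.386, n = 10), and to TOM1L1. PGM1 feeds the substrate of GPI, and its r with GPI was 0.871 without animal 5 and 0.682 without animals 3 and 5.

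GAPDH was closest to DYNLL1, a dynein light chain (r = 0.979, permutation p = 0.00013, rho = 0.915, permutation p = 0.00048, limma adjusted p = 0.0038, n = 10; r = 0.902 without animals 5 and 6), PRAF2 and GABARAPL2. ENO3 was closest to PCIF1, FGF13 and IAH1, with r from 0.957 to 0.979, but the rho of PCIF1 was 0.550 (permutation p = 0.104) and its r 0.734 without animals 5 and 9. With median centring the slopes on ENO3 turned to -0.037 for FGF13 and -0.023 for IAH1, and on the deposited scaling none of these 3 genes passed. PFKM was closest to NEDD4L, a ubiquitin ligase (r = 0.934, permutation p = 0.0004, rho = 0.806, permutation p = 0.00699, limma adjusted p = 0.0336, n = 10; r = 0.742 without animals 3 and 5), RAB7A and HSPB2. The closest genes of ALDOA were TNNC2, the fast troponin C (r = 0.902, permutation p = 0.00064, rho = 0.902, permutation p = 0.0008, limma adjusted p = 0.9998, n = 10, and r = 0.7497 without animals 2 and 8), AKAP8 and EMCN. Those of PGAM2 were GAMT, which makes creatine, COPS4 and DCAF8, and COPS4 was also closest to PGK1, followed by AGFG1 and SAR1A. Those of TPI1 were GPC3, DSN1 and PAOX, and those of LDHA were TMEM47, PBXIP1 and FOXN3. For GPI, ALDOA, TPI1, PGK1, PGAM2 and LDHA no closest gene passed in limma, and those of GAPDH, ENO3, PKM and, for NEDD4L alone, PFKM did.

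Genes around the 10 enzymes were read from lists of their pathways. Of 14 isozymes of glycolysis that are typical of other tissues, 11 were measured and 8 tested. The brightest was LDHB, the heart type subunit of lactate dehydrogenase, from 12.84 through a median of 13.50 to 14.13 (SD 0.36). PKLR, the liver and red cell pyruvate kinase, had the largest SD at 0.73 and a median of 7.16. None of the 8 passed with the poly(A) control difference, the oxidative phosphorylation score, the adipocyte score, PKM, PFKM, ENO3 or GAPDH as covariate.

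Of 13 genes of sugar entry and regulation, 11 were measured and 7 tested. FBP2, the muscle fructose bisphosphatase that works against PFKM, was the brightest with a median of 14.38 and fell by 0.27 per SD of the poly(A) control difference (SE 0.08, limma adjusted p = 0.0305), with 13.49 in animal 5, against 13.98 to 14.59 in the other 9. PFKFB3, which makes the fructose 2,6-bisphosphate that activates phosphofructokinase, had the largest SD of the list, 0.997, from 10.69 through 12.80 to 14.22, and passed in none of these fits. Its relative PFKFB4 rose with PKM by 0.63 (SE 0.18, limma adjusted p = 0.0372) and also passed with ENO3 as covariate. FBP2 and PFKFB4 were each 1 of 7 tested genes in the fits where they passed. Over all genes 15.4% passed with the poly(A) control difference, 12.4% with PKM and 14.2% with ENO3.

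Of 22 genes of pyruvate and NADH use, 18 were measured and tested. MPC1, a subunit of the mitochondrial pyruvate carrier, fell by 0.48 per SD of the poly(A) control difference (SE 0.08, limma adjusted p = 0.00229), with 12.29 in animal 5, against 13.43 to 13.97 in the others. PDHB, the beta subunit of pyruvate dehydrogenase, fell by 0.30 (SE 0.07, limma adjusted p = 0.0138), with 11.52 in animal 5, against 12.21 to 12.65. MPC1 and PDHB were 2 of 18 genes, beside 15.4% of all genes, and the median slope of the list was 0.18. MPC1 and PDHB also passed with the oxidative phosphorylation score (6.89% of all genes) and with ENO3 as covariate (14.2%). With PKM as covariate (12.4% of all genes) 1 of 18 rose and 3 fell. GPD1, the cytosolic glycerol 3-phosphate dehydrogenase, rose by 0.41 (limma adjusted p = 0.0285). The pyruvate dehydrogenase components PDHX and DLAT fell by 0.33 and 0.32 (limma adjusted p = 0.0266 and 0.0285), and GOT1, a transaminase of the malate and aspartate shuttle, fell by 0.39 (limma adjusted p = 0.0275) and passed with ENO3 too. Without animal 5 no gene passed in the poly(A), oxidative phosphorylation, ENO3 or PKM fits. MDH2 was the brightest of the list with a median of 14.74, and SLC16A1, a lactate transporter, had the largest SD at 0.69.

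The oxidative phosphorylation score, the mean deviation of 47 tested genes of 60 listed symbols, older names of some genes included, set the enzymes beside the other energy route of muscle. Outside the list 342 genes rose with it and 87 fell, 6.89% of 6224, and 0 of 10 enzymes passed. PKM had a slope of 0.42 (SE 0.15, limma adjusted p = 0.105), PFKM 0.24 (limma adjusted p = 0.302) and GAPDH 0.16 (limma adjusted p = 0.178). Without animal 5, 0 of 6228 genes passed in limma, 607 had an unadjusted p below 0.05, and the slopes of the enzymes ran from -0.22 for PKM (limma adjusted p = 0.478) to 0.04 for ALDOA, with 9 of 10 below 0. Of all tested genes 51.9% had a slope above 0 in that fit. The sign for PKM thus changed without animal 5. On the deposited scaling 2.1% of genes and 0 of 10 enzymes passed, with all 10 slopes above 0, beside 55.3% of all tested genes. In the list itself NDUFA4 was the brightest with a mean of 15.14 and COX6A2 had the largest SD at 0.74. With the poly(A) control difference 1 of the 47 rose, NDUFB10, and 19 fell (15.4% of all genes passed), namely NDUFA2, NDUFA6, NDUFA10, NDUFB3, NDUFC1, NDUFS7, NDUFS8, UQCRC2, UQCRFS1, UQCRB, UQCRQ, COX6A2, COX6C, COX7C, COX8B, ATP5F1D, ATP5PD, ATP5PO and ATP5MC3. With PKM as covariate (12.4% of all genes) 9 of the 47 rose, among them COX6A2 by 0.66 (SE 0.11, limma adjusted p = 0.00881), and NDUFS1 fell by 0.27 (limma adjusted p = 0.0363). With ENO3 (14.2% of all genes) 10 rose and with GAPDH (10.1%) 12, and with PFKM none passed. Without animal 5 no gene passed in any of these fits.

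With the adipocyte score, the mean deviation of 8 tested fat cell genes of 14 listed, 1 of 6263 genes rose (0.016%) and 0 of 10 enzymes passed. The slopes of the enzymes ran from -0.01 for PKM to 0.10 for PFKM, and the smallest limma adjusted p among them was 0.998. The score itself ran from -0.77 in animal 2 to 1.11 in animal 9. After quantile normalization animal 9 also had the highest GPI, PFKM, ENO3 and PKM. On the deposited scaling animal 10 was highest for GPI, ENO3 and PKM and animal 1 for PFKM.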

How the data were processed

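The authors deposited a linear intensity for each probe set on each array, already summarised and scaled. The sources used here do not name the software. In the deposited values the mean without the lowest and highest 2% of probe sets was 500.18 to 500.20 on every array. Trizol extraction, purification of poly(A) RNA on a resin and biotin labelling are given per the labels' protocols. All 10 columns were used, and their number limits the precision.

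Intensities were turned into log2(signal + 16) and quantile normalized over 24016 probe sets outside 112 controls, since array medians spanned 0.24. GAPDH control sets were mapped through the same distribution. Of the 24016, 13292 had 1 gene symbol, 86 several and 10638 none. Genes were tested above a mean of 6.98. The poly(A) measure used 8 of 9 pairs of probe sets, as the trp pair was near background; the hybridization measure used 18 probe sets.

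Fits used limma version 3.58.1 (R version 4.3.3) with each covariate in SD units, two-sided, and the Benjamini-Hochberg adjustment over all tested genes at 0.05; members of a score's list were fitted against the score without them and left out of its counts. The code of the fits was run on simulated data with independent noise for each gene and a random covariate. Such data hold no outlying animal, so they do not test the calls reported here. Permutation p-values of r and rho are two-sided, from 100000 resamples (NumPy version 2.4.6), and are not adjusted for the number of pairs. The limma p is adjusted over all tested genes within a fit, not over the fits. The enzymes and gene lists were chosen with earlier results of these data known. Named are the 10 enzymes, the 3 genes most like each, and from each list the members past a test, the brightest and the most variable. Symbols were found for all 10 in a RefSeq table of ARS-UCD2.0, used for names only. Marker lists of connective tissue, leukocytes, red cells, endothelium, smooth muscle and liver plasma proteins were scored per animal as well. Alternatives were other scalings, pseudocounts, filters, probe set summaries, tests and leaving out each animal.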

Additional observations from a re-analysis of the deposited data

Results flagged for a closer look

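In each group of 10 values the gap of the extreme animal to its neighbour was set against the whole range by Dixon's test. Of the 17 quantile normalized probe sets of the enzymes 7 had an outlying animal, and in all 7 it was animal 5, at the low end. Chance gives about 1 in 20 such groups, and the probe sets share arrays. Among the genes tested, each by its brightest probe set, 16.7% of 6271 had an outlying animal and 8.63% were low in animal 5, beside 3 of 10 enzymes for both. In animal 5 the quantile normalized levels were 14.94 for the GAPDH 5' set, 15.32 for the GAPDH middle set, 15.45 for the GAPDH set outside the controls, 15.31 for ENO3, 12.28 for PKM, and 11.07 and 12.64 for the dimmest and the second of the PFKM sets. On the deposited scaling animal 2 was lower than animal 5 for ENO3 and for the GAPDH middle set and the set outside the controls. The poly(A) control difference of animal 5, 2.80, was outlying too, at the high end. The GAPDH 3' set, the brightest PFKM set and all LDHA, ALDOA, TPI1, PGK1, PGAM2 and GPI sets had no outlying animal. The part of the control difference in these values was not tested.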

How the results depend on the processing

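No paired analysis was possible because the animals form 1 group. Leaving out each animal in turn, the median SD of the enzymes was 0.17 to 0.22, genes called over the 10 enzyme fits 0 to 3046, ordered enzyme pairs 0 to 7, genes in the poly(A) control fit 0 to 1047, in the hybridization control fit 0 to 0, in the oxidative phosphorylation fit 0 to 545 and in the adipocyte fit 0 to 2; the zeros outside the hybridization and adipocyte fits come without animal 5. The 5 enzyme pairs were 3 without any of animals 7, 8, 9 and 10. The 429 genes of the oxidative phosphorylation fit were 284, 280, 285 and 258 without animals 2, 3, 4 and 8, and the adipocyte count was 0 without any of animals 2, 3, 4, 7, 9 and 10. The PKM slope in the poly(A) fit ran from -0.61 without animal 3 to 0.12 without animal 5, and with median centring the slopes of FGF13 and IAH1 on ENO3 turned to -0.037 and -0.023. Of the enzymes' slopes in the poly(A), hybridization, oxidative phosphorylation and adipocyte fits, 105 changed sign without passing under either setting.

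With the deposited scaling the median SD was 0.49, with 1245 genes called over the enzyme fits, 17 pairs, 18 genes in the hybridization fit and 131 in the oxidative phosphorylation fit. With median centring these were 0.41, 878, 3, 0 and 1, and 0 in the adipocyte fit. Without a filter 1091 genes, 3 pairs and 103 oxidative phosphorylation genes were called, where more genes were tested. With the mean of probe sets 69 oxidative phosphorylation and 0 adipocyte genes were called. The poly(A) covariate left 0 genes and 0 pairs in the enzyme fits and 0 in the oxidative phosphorylation fit, while the slopes of the 5 pairs stayed positive, from 0.35 for PFKM on ENO3 to 0.54 for PKM on ENO3. Spearman correlation called 23 genes and 0 pairs, 3 poly(A), 2 oxidative phosphorylation and 3 adipocyte genes. A variance trend gave 11 pairs, a pseudocount of 64 gave 2 adipocyte genes, and a filter at the 75th percentile gave 0. The cause of these shifts was not tested. Chosen after seeing the data, a GAPDH set outside the controls gave 2650 genes and 6 pairs, and averaging in the trp pair 879 genes in the poly(A) fit.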

Other observations

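Some markers of other cell types also stood low in animal 5. The mean deviation of 6 leukocyte genes was -0.87 in animal 5, against -0.64 to 0.84 in the other 9 animals. That of 5 smooth muscle genes was -0.72, against -0.30 to 0.42. Of these 5, TAGLN was at 7.89 in animal 5, beside a mean of 9.69 over all animals, and ACTA2 at 11.28, beside 12.55. The smooth muscle mean does not show that the rest of its list was low. The 6 liver plasma protein genes were at -1.81, against -1.76 to 2.47. The 8 connective tissue genes, at -0.92, the 3 endothelial genes, at 0.02, and the 1 red cell gene, at 0.00, lay within the range of the other animals. Single markers passed in fits on an enzyme. TAGLN of smooth muscle rose with PKM, ENO3 and GAPDH, with ENO3 by 0.67 (SE 0.12, limma adjusted p = 0.00679), and was at 7.89 in animal 5, against 9.05 to 10.51 in the others. ACTA2 rose with ENO3 and GAPDH, DCN of connective tissue with the same covariates, ATP2A1, the fast fibre calcium pump, with PKM and ENO3, MYL3 of slow fibres with GAPDH, and ALB with PKM. The fat cell genes PNPLA2, with PKM and ENO3, and LPL, with GAPDH, fell. In each of these fits 1 of 8 fat cell genes passed. The median slope of that list was 0.04 with PKM, 0.07 with ENO3 and 0.04 with GAPDH. ATP2A1 was 1 of 7 fast fibre genes, with list medians of -0.007 with PKM and -0.014 with ENO3. The other lists named had medians above 0 in their fits. Over all genes 12.4% passed with PKM, 14.2% with ENO3 and 10.1% with GAPDH. Without animal 5 no gene passed in these fits.

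After quantile normalization animal 3 was the lowest animal for GPI and PGK1 and the highest for ALDOA. It had 13.37 for PKM and 14.50 for PFKM, the lowest values after those of animal 5, and its liver plasma protein score of 2.47 was the highest. Its poly(A) control difference, 1.09, was the lowest of the 10.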
